A study of Mus musculus with 23 samples.

Results

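The T cell receptor complex and its coreceptors were followed through 10 genes, found by symbol among the 47643 genes of the deposited table. They were the CD3 subunit genes Cd3e, Cd3d and Cd3g, the zeta chain gene Cd247, the coreceptor genes Cd4, Cd8a and Cd8b1, and the T cell surface genes Cd2, Cd28 and Thy1. All 10 were in the table, and their levels were read as TPM, a transcript share scaled for gene length and for the library total. The libraries came from B16F10, a mouse melanoma line that forms tumors after injection into mice. Bulk tumors had 3 groups of 2 libraries: control (genotype WT), and sg492 and sg495, each labeled NR2F6 KO and edited with a different guide against Nr2f6, a nuclear receptor gene of the tumor cell. Guide RNA labeled with Cy3 went into the cells together with Cas9 protein, Cy3-positive cells were sorted, no cloning of single cells is described, and the labels state no edit of the host mice. According to the general methods, B16F10 hosts were male C57BL/6 mice aged 6 to 8 weeks, or in other experiments NSG or NR2F6 KO mice, and the hosts of these libraries are not named separately. A further 2 libraries labeled IgG control and 3 labeled anti-PD1, all of genotype WT, carry the line name B16F10 and no sample type, dose or time. Tumor cells sorted from tumors by depletion of stromal cells, and cultured cells, each had 6 libraries of the same 3 groups and served as background. The labels do not say that libraries of a group came from separate animals, so p-values measure the spread between these libraries only.

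The T cell receptor binds antigen through variable chains that have almost no signaling part of their own. The CD3 subunits and the zeta chain carry the signal into the cell, CD4 binds MHC class II and CD8 binds MHC class I beside the receptor, and CD28 gives a costimulatory signal. CD2 is an adhesion receptor of T and natural killer (NK) cells, and Thy1 is a surface glycoprotein of mouse T cells that fibroblasts also carry. In tumors, these genes are read as signs of T cell infiltration. In a bulk library, fewer T cells and less RNA per T cell cannot be told apart.

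Sorted tumor cells and cultured cells gave the background of the 10 genes. In sorted tumor cells, 41 of 60 values were listed at 0, and the highest was 0.97 TPM for Cd247 in sg495 replicate 1, the same library that had 0.69 TPM of Cd3g. In cultured cells, 53 of 60 values were at 0, and the highest was 0.80 TPM for Cd247 in control replicate 2. Cd3e was at 0 in all 12 of these libraries. None of the 10 genes reached a mean of 1 TPM in either sample type, the level required for a test, so they were not compared between guides there. In bulk tumors, 9 of 10 passed (Cd28 had a mean of 0.49 TPM), and all 10 passed in the IgG control and anti-PD1 libraries.

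**Figure D1:**
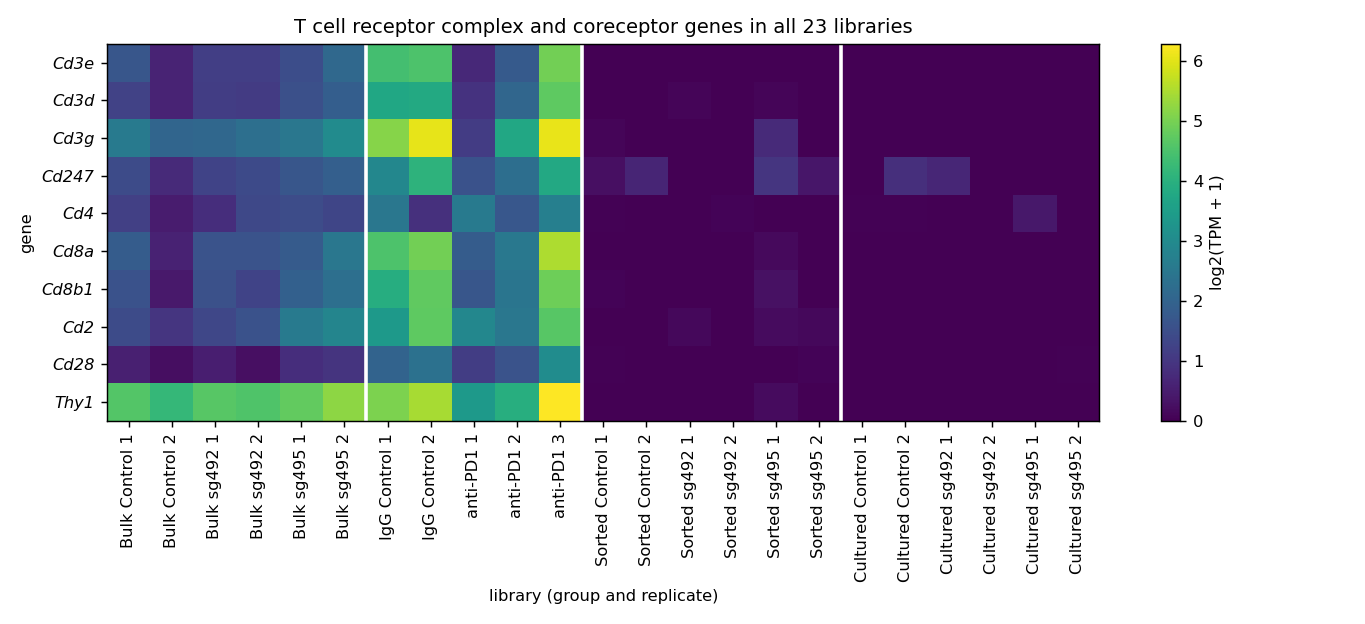
Level of the 10 genes, as log2(TPM + 1), in all 23 libraries, with genes in rows and libraries in columns (white lines separate bulk tumors, IgG control and anti-PD1, sorted tumor cells, and cultured cells). Signal is found in the 11 libraries on the left, while sorted and cultured cells stay at or near 0, with at most 0.97 TPM.

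The libraries differed in more than T cell genes. Levels of Ptprc, the gene of the leukocyte surface phosphatase CD45, were 9.29 and 5.74 TPM in the bulk control tumors, 13.79 and 15.98 in sg492, and 18.16 and 26.21 in sg495. It had 162.00 and 272.52 TPM in IgG control and 86.68, 167.95 and 251.46 TPM with anti-PD1. The 6 macrophage genes read as a marker list summed to between 190.2 and 442.8 TPM in bulk tumors and to between 2658 and 4176 TPM in the IgG control and anti-PD1 libraries. Melanocyte genes went the other way, with sums from 14782 to 15829 TPM in bulk tumors against 1634 to 4907 TPM. The 2 sets were therefore fitted apart, and no difference between them was tested. Nr2f6 itself had 25.83 and 25.24 TPM in the bulk control tumors, 22.31 and 23.31 in sg492, and 17.22 and 15.76 in sg495, so both edited groups lay below control there. In sorted tumor cells it had 20.32 and 17.73 TPM in the controls, 19.84 and 25.70 in sg492, and 10.60 and 12.18 in sg495, so the libraries labeled sg492 were not below control in that sample type. In cultured cells the 2 sg492 libraries, at 26.55 and 31.50 TPM, were below the controls at 31.88 and 32.90 TPM, and sg495 was lower still at 18.55 and 22.43 TPM.

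Among the CD3 subunits, Cd3e had 2.19 and 0.55 TPM in the bulk control tumors, 1.26 in both sg492 libraries, and 1.79 and 3.35 in sg495. Cd3d had 1.37 and 0.55 TPM in the controls, 1.21 and 1.13 in sg492, and 1.90 and 2.65 in sg495. Cd3g, the most abundant of the 3, had 4.89 and 3.11 TPM in the controls, 3.26 and 3.92 in sg492, and 4.62 and 7.22 in sg495. Both sg495 libraries were above both controls for Cd3d, while for Cd3e and Cd3g the lower sg495 library fell below control replicate 1. The zeta chain gene Cd247, whose product passes the signal to the kinase ZAP-70, had 1.69 and 0.68 TPM in the controls, 1.39 and 1.67 in sg492, and 2.23 and 2.71 in sg495. Its sg495 libraries lay above all other bulk tumors. Its 0.68 TPM in control replicate 2 was within its background, which reached 0.97 TPM in sorted and 0.80 TPM in cultured cells. The part of that background in the bulk values was not tested. Cd247 (chromosome 1, 165788681 to 165877277, plus strand, GRCm38) overlaps 6 other annotated genes, Pou2f1 on the opposite strand among them. The library kit marks strand, but whether the counting used it is not given in the sources used here, so the split of reads in the shared stretch is uncertain. Cd3e likewise overlaps the annotated antisense gene Gm48719, and Gm48720 on its own strand. Gm16565 lies on the same strand as Cd247. Counting by strand does not separate reads of genes that overlap on the same strand.

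The CD3 subunit genes are neighbors on chromosome 9 of GRCm38. Cd3g (44969572 to 44980431, minus strand) and Cd3d (44981786 to 44987339, plus strand) are transcribed away from each other from starts 1355 bp apart, and Cd3e (44998740 to 45009627, minus strand) starts 27841 bp from Cd3d. Their promoters are shown because the 3 genes share this stretch and varied together across libraries. RefSeq sequences on GRCm38.p6, from 250 bases before to 50 bases after the start, were at hand for 5 of the 10 genes: Cd3e, Cd3d, Cd3g, Cd247 and Cd8a. The CD3 promoters are printed 5′ to 3′ on the strand of each gene, with capitals for an ETS core (AGGAAGT, or ACTTCCT on the other strand) and an E-box (CAGGTG, or CACCTG on the other strand).
Cd3e (chr9:45009562-45009861, minus strand): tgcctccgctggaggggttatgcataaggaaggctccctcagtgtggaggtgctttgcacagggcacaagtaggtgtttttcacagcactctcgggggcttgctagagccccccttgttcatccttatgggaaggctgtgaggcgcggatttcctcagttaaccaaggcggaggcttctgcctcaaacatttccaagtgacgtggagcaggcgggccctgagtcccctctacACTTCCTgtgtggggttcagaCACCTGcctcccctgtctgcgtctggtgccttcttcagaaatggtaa
Cd3d (chr9:44981536-44981835, plus strand): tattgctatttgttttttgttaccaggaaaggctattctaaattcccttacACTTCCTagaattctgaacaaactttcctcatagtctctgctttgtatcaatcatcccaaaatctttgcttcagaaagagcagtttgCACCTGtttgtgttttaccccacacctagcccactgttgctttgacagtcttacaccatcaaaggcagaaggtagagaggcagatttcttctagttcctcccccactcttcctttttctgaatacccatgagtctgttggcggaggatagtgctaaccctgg
Cd3g (chr9:44980382-44980681, minus strand): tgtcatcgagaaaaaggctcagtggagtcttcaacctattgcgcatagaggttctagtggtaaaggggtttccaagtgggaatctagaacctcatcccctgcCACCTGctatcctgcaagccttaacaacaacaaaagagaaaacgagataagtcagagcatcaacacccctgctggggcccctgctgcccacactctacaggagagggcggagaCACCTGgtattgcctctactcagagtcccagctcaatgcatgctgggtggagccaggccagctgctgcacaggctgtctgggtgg
The RefSeq start of Cd3e, at 45009611, lies 16 bases inside the GENCODE start given above, and the starts of Cd3d and Cd3g are the same in both. Counted from the RefSeq start, the ETS core of Cd3e began 18 bases before it and the E-box 3 bases after it. Cd3d had the ETS core 199 bases and the E-box 112 bases before its start. Cd3g had 2 E-boxes, 148 and 35 bases before its start, and no ETS core. Of all 32851 promoters of the same length, 9.351% held the ETS core and 20.212% the E-box on either strand. Cd247 held both, and Cd8a neither. A RUNX motif (TGTGGT) and a TATA box (TATAAA) were in 0 of the 5 promoters, against 16.761% and 13.616% of all, and a GATA motif (AGATAA) was in Cd3g and in 11.178% of all. No match overlaps another in the printed sequences, and a match of letters is not evidence of binding.

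Coreceptor genes were low in every bulk tumor. Cd8a, which encodes the CD8 alpha chain, had 2.57 and 0.51 TPM in the controls, 2.06 and 2.05 in sg492, and 2.48 and 4.59 in sg495. Cd8b1, which encodes the beta chain found on conventional CD8 T cells, had 1.98 and 0.34 TPM in the controls, 1.93 and 1.39 in sg492, and 2.77 and 3.94 in sg495. Both sg495 libraries exceeded both controls for Cd8b1 but not for Cd8a, where control replicate 1 stood above sg495 replicate 1. Cd4 had 1.28 and 0.40 TPM in the controls, 0.78 and 1.55 in sg492, and 1.76 and 1.48 in sg495, which placed both sg495 libraries above both controls. Cd8b1 (71322788 to 71337494) and Cd8a (71373427 to 71379173) are on the plus strand of chromosome 6, with starts 50639 bp apart, and Cd4 is on the minus strand of the same chromosome (124864692 to 124888221).

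Of the accessory genes, Cd2 (chromosome 3, 101275899 to 101287939, minus strand) separated the groups most. It had 1.70 and 0.96 TPM in the controls, 1.53 and 1.99 in sg492, and 4.88 and 6.26 in sg495, so the lower sg495 library had more than any of the other 4. Thy1 (chromosome 9, 44043384 to 44048579, plus strand) was the most abundant of the 10 genes in all 6 bulk tumors, with 23.32 and 17.05 TPM in the controls, 24.26 and 22.29 in sg492, and 26.42 and 36.01 in sg495. Its sg495 libraries were above both controls. The costimulatory receptor gene Cd28 (chromosome 1, 60716800 to 60773359, plus strand) had 0.46 and 0.18 TPM in the controls, 0.45 and 0.19 in sg492, and 0.76 and 0.91 in sg495, higher in both sg495 libraries but under the level required for a test.

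**Figure D2:**
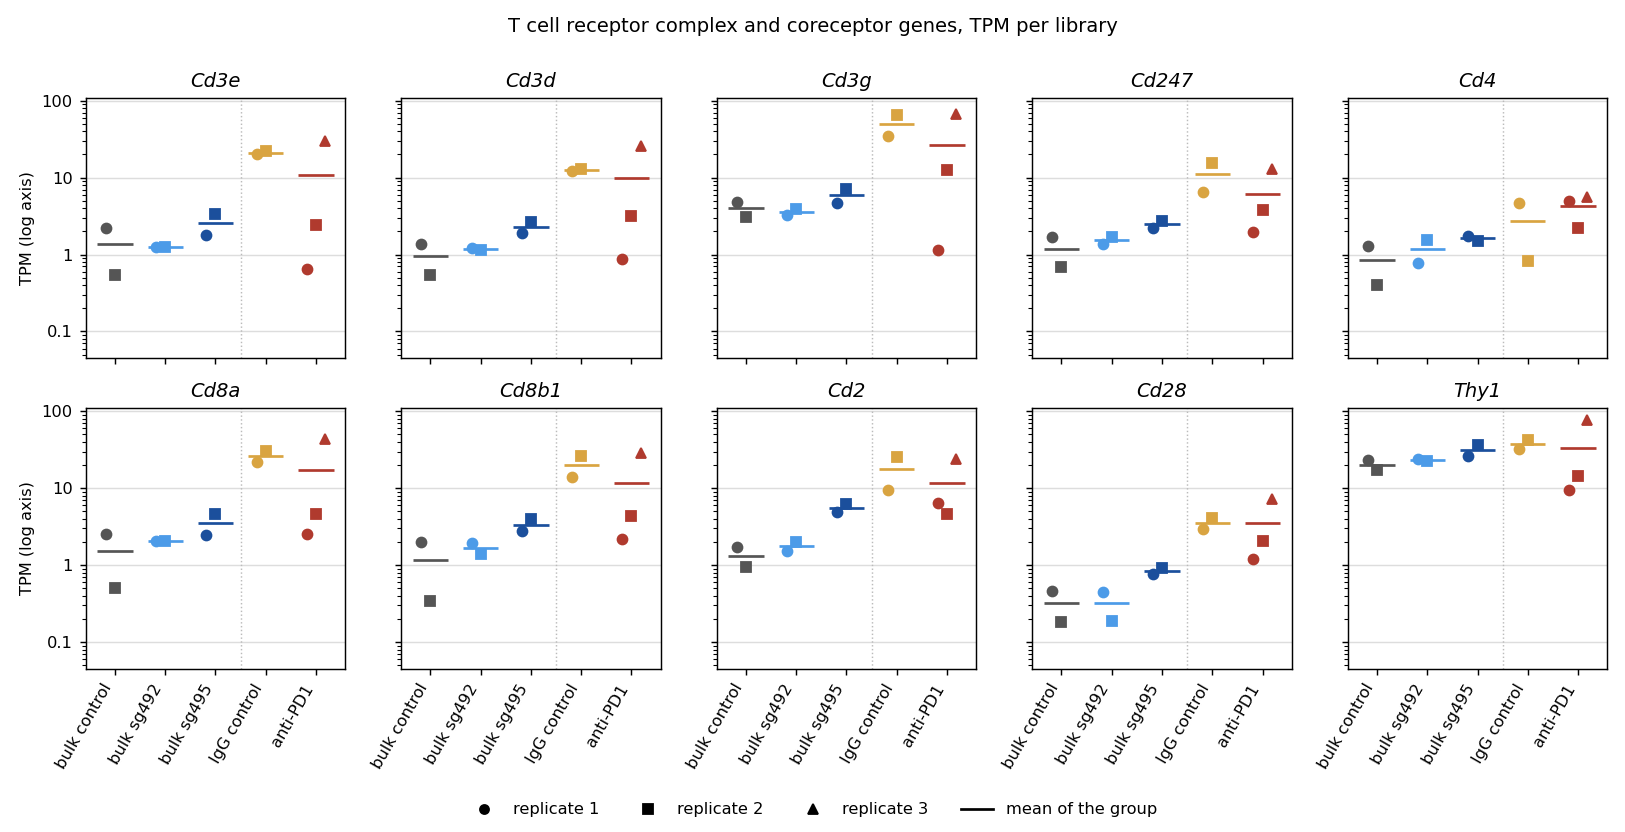
TPM of each of the 10 genes per library on a shared log axis, by group, with a symbol for each replicate and a line at the group mean. Control replicate 2 is the lowest bulk tumor for all 10 genes, sg495 replicate 2 the highest for 9, and the 3 anti-PD1 libraries spread more widely than any bulk group for every gene except Cd4.

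A single library set the low end of bulk tumors and another the high end. Control replicate 2 was lowest of the 6 for 10 of 10 genes, and sg495 replicate 2 was highest for 9 of 10, the exception being Cd4, highest in sg495 replicate 1. These extremes were not particular to the 10 genes. Ptprc and the sums of macrophage, NK cell, fibroblast and endothelial genes had the same lowest and highest library. Dendritic cell and melanocyte sums were lowest in control replicate 2 but highest in sg495 replicate 1, and the B cell sum shared neither extreme. No share over all genes is given for such extremes. The summed TPM of the 10 genes were 41.45 and 24.33 in control, 38.13 and 37.44 with sg492, and 49.61 and 69.12 with sg495. Control replicate 1 thus stood above both sg492 libraries, and the gap between the controls was wider than the gap between sg492 and either control replicate 1 or sg495 replicate 1.

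To ask whether editing of Nr2f6 in tumor cells went with a change in T cell genes, sg495 was first compared with control in limma, a linear model fitted to log2(TPM + 1) of 13639 genes whose mean over the bulk tumors reached 1 TPM. Calls required a p below 0.05 after Benjamini-Hochberg adjustment over all of them, together with a change of 1.5-fold or more, and 0.0293% of all genes met both. Of the 9 genes tested, 0 were called. Cd2 came closest, with a log2 fold change of 1.51 (SE 0.242, limma adjusted p = 0.0879). The CD8 chains had the next largest log2 fold changes, 1.11 for Cd8b1 (SE 0.403, limma adjusted p = 0.261) and 0.93 for Cd8a (SE 0.441, limma adjusted p = 0.389). By adjusted p, Thy1 came next after Cd2 (limma adjusted p = 0.208). Log2 fold changes of the CD3 subunits were 0.76 for Cd3d, 0.65 for Cd3e and 0.47 for Cd3g, with SE from 0.263 to 0.399 and adjusted p from 0.274 to 0.506. Cd247 had 0.70 (SE 0.284), Thy1 0.60 (SE 0.193) and Cd4 0.55 (SE 0.332), with adjusted p from 0.208 to 0.492. The scale understates fold changes of low genes, since 1 was added to values near 1 TPM.

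All 9 log2 fold changes were above 0, as were those of 63.1% of all genes, and their median was 0.70 against 0.06 over all genes. At an unadjusted p below 0.05 there were 5 of 9 (Cd2, Cd8b1, Cd3d, Cd247 and Thy1), where 15.7% of all genes had such a p. Both sg495 libraries were above both controls for 6 of 9 (Cd2, Cd8b1, Cd3d, Cd247, Thy1 and Cd4), where 31.6% of all genes did the same. The median rested on the controls: without control replicate 2 it was 0.36, and without control replicate 1 it was 1.07. When all 18 libraries of the 3 sample types shared a fit, Cd2, Cd3d and Cd8b1 were called (limma adjusted p = 0.00143, 0.0320 and 0.0386). That fit also called 526 genes higher and 35 lower over the whole table, and it drew part of its spread from sorted and cultured cells, in which these genes are near 0.

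In the libraries labeled sg492, in which Nr2f6 was only slightly below control, 0 of 9 genes were called by limma, as were 0.0% of all genes. An unadjusted p below 0.05 was found for 0 of 9 (8.3% of all genes), and 0 of 9 had both sg492 libraries above both controls (31.1% of all genes). The largest log2 fold changes were 0.41 for Cd8b1 (SE 0.403, limma adjusted p = 0.790) and 0.40 for Cd8a (SE 0.441, adjusted p = 0.812). Cd2 had 0.26 (SE 0.242), Cd4 and Cd247 each 0.25, Thy1 0.21 and Cd3d 0.18. Cd3e, at 0.02 (SE 0.399), turned to −0.013 with median-of-ratios scaling and −0.14 with quantile normalization, and Cd3g had −0.10 (SE 0.263). Above 0 were 8 of 9, compared with 65.7% of all genes, and the median was 0.25. Without control replicate 2 the median was −0.13, and without control replicate 1 it was 0.54.

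The guides were also set against each other. No gene was called by limma between sg495 and sg492 (0 of 9, and 0.0% of all genes), and 1 of 9 had an unadjusted p below 0.05 (10.1% of all genes). That gene was Cd2, with a log2 fold change of 1.25 (SE 0.242, limma adjusted p = 0.209). For 8 of 9 genes both sg495 libraries exceeded both sg492 libraries, compared with 21.1% of all genes, and Cd4 was the exception. All 9 log2 fold changes were above 0 (51.9% of all genes), from 0.30 for Cd4 to 1.25 for Cd2, with a median of 0.57. Leaving out sg495 replicate 2 lowered that median to 0.35.

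With both guides as a single group against control, 0 of 9 genes were called by limma and 0.0147% of all genes were. Cd2 had a log2 fold change of 0.88 (SE 0.210, limma adjusted p = 0.185) and Cd8b1 0.76 (SE 0.349, adjusted p = 0.436). Cd2 and Thy1 had an unadjusted p below 0.05, or 2 of 9, against 13.1% of all genes. All 9 were above 0 (65.2% of all genes), with a median of 0.47, which became 0.14 without control replicate 2 and 0.82 without control replicate 1. The 3 comparisons with control share its 2 libraries. In the fit of all 18 libraries, Cd2 was called both here (limma adjusted p = 0.00923) and between the guides (adjusted p = 0.00467). Over the whole table, that fit called 381 genes higher and 7 lower for both guides, and 52 higher and 34 lower between the guides. Part of its spread came from sorted and cultured cells, in which Cd2 is near 0.

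**Figure D3:**
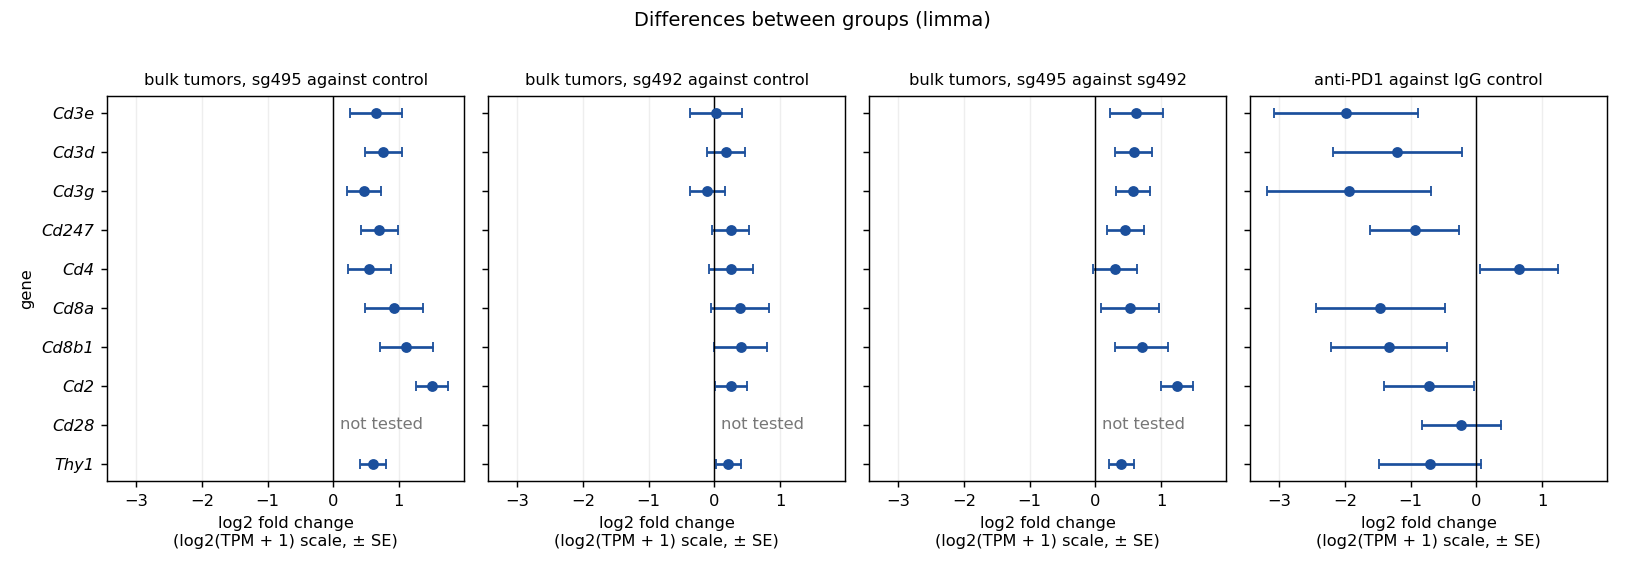
Log2 fold change of each gene on the log2(TPM + 1) scale, with its SE, in 4 limma comparisons on a shared axis. Points of sg495 lie between 0.47 and 1.51, those of sg492 between −0.10 and 0.41, and those of anti-PD1 between −1.99 and 0.65 with SE of up to 1.25, and no point was called.

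Genes of other cell types also lay higher in sg495 than in control, without a call. Ptprc had a log2 fold change of 1.46 (SE 0.250, limma adjusted p = 0.0973). All 6 macrophage genes had both sg495 libraries above both controls, with a median log2 fold change of 0.90, and 5 of 6 fibroblast genes did, with a median of 0.77, where 31.6% of all genes did. The 6 NK cell genes summed to 8.8 and 4.5 TPM in control, 13.8 and 13.9 TPM in sg492 and 20.4 and 22.9 TPM in sg495, and the 3 of them that could be tested had a median of 1.41. Medians were 0.84 for 4 dendritic cell genes, 0.19 for 5 endothelial genes and 0.01 for 6 melanocyte genes, and the only B cell gene tested, Cd79a, had −0.37. With sg492, both libraries were above both controls for 5 of 6 macrophage, 5 of 6 fibroblast and 3 of 3 NK cell genes. They were so for 3 of 4 dendritic cell, 2 of 5 endothelial, 2 of 6 melanocyte and 0 of 1 B cell genes, and for 31.1% of all genes. Ptprc had a log2 fold change of 0.93 with sg492 (SE 0.250, limma adjusted p = 0.497). In these lists 0 genes were called, and their part in the levels of the 10 genes was not tested. NK cells share Cd2, Cd247 and Thy1 with T cells, and fibroblasts share Thy1. Col1a1, a collagen gene of fibroblasts, had 92.22 and 72.17 TPM in the controls, 105.72 and 121.42 in sg492, and 126.62 and 207.81 in sg495.

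Dividing by Ptprc placed the same genes on the scale of the leukocyte signal, a scale chosen after the data had been seen. Per 100 TPM of Ptprc in the same library, Cd3g had 52.64 and 54.18 TPM in the controls, 23.64 and 24.53 in sg492, and 25.44 and 27.55 in sg495. All 4 edited libraries lay below both controls, but the divisor sets this: because Ptprc was higher in the edited libraries, 95.2% of all genes in sg495 and 91.1% in sg492 lay below both controls in the same way. Thy1 was lower than control in both edited groups as well, with 251.0 and 297.0 TPM per 100 TPM of Ptprc in control, 175.9 and 139.5 in sg492, and 145.5 and 137.4 in sg495. Cd2 did not follow in sg495, with 18.30 and 16.72 TPM per 100 TPM of Ptprc in control, 11.10 and 12.45 in sg492, and 26.87 and 23.88 in sg495. Cd8a overlapped across the groups on this scale, with 27.66 and 8.89 TPM in the controls, 14.94 and 12.83 in sg492, and 13.66 and 17.51 in sg495. Against control, the mean log2 ratio to Ptprc was lower for 8 of 10 genes with sg495 (median difference −0.30) and for 10 of 10 with sg492 (median −0.58). Of all genes, 98.9% and 97.9% were lower, so a lower mean ratio alone says little about the 10 genes. Both edited libraries lay below both controls for 2 of 10 genes with sg495 and 6 of 10 with sg492. The shares of all genes were 95.2% and 91.1%. The ratio was higher with sg495 for Cd2, by 0.53, and for Cd8b1, by 0.43. For Cd8b1 the libraries overlapped, with 21.31 and 5.92 TPM per 100 TPM of Ptprc in control and 15.25 and 15.03 in sg495. Cd2 in both sg495 libraries exceeded both controls, as did 0.195% of all genes. These differences carry no test.

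**Figure D4:**
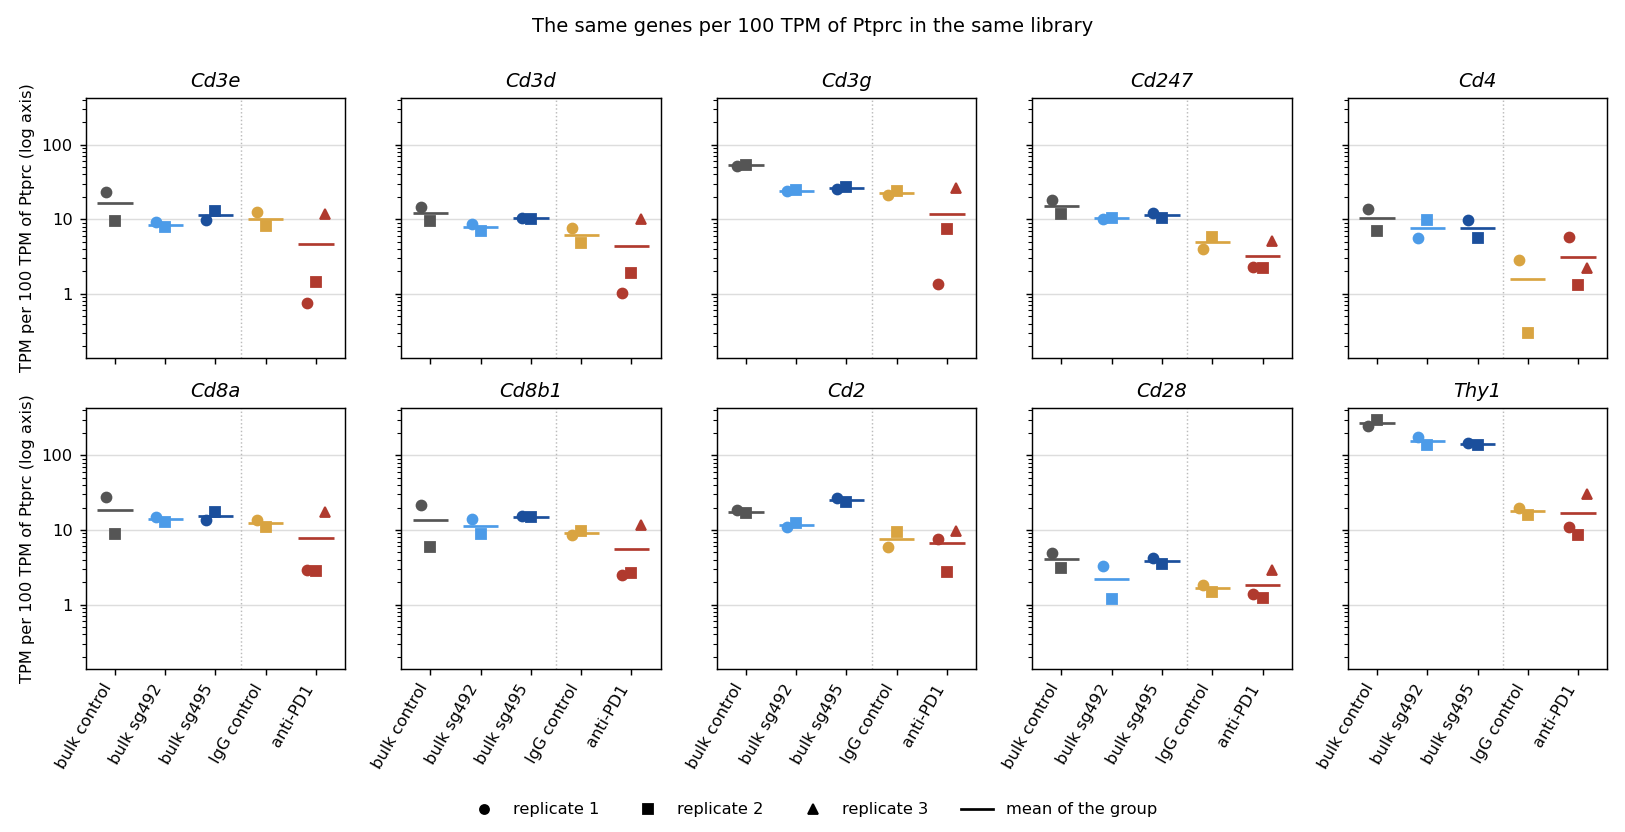
TPM of each gene per 100 TPM of Ptprc in the same library, on a shared log axis, with a symbol for each replicate and a line at the group mean. Cd3g and Thy1 are lower in both edited groups than in control, as nearly all genes are on this scale, and Cd2 is higher in sg495 than in control.

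Whether antibody treatment went with T cell genes in unedited B16F10 was examined in the 5 IgG control and anti-PD1 libraries. Cd3e had 20.06 and 22.09 TPM in IgG control and 0.65, 2.41 and 29.65 TPM with anti-PD1. Cd3d had 12.29 and 13.08 TPM in IgG control and 0.88, 3.20 and 25.50 TPM with anti-PD1, and Cd3g had 34.31 and 65.54 TPM against 1.16, 12.54 and 66.85 TPM. For all 3 CD3 subunits, anti-PD1 replicates 1 and 2 were below both IgG controls and anti-PD1 replicate 3 above both. Cd247 had 6.52 and 15.70 TPM in IgG control and 1.99, 3.79 and 12.85 TPM with anti-PD1. Its anti-PD1 replicate 3 stayed between the IgG controls.

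The CD8 chains had the CD3 pattern. Cd8a had 21.98 and 30.06 TPM in IgG control and 2.54, 4.69 and 44.16 TPM with anti-PD1. Cd8b1 had 14.06 and 26.08 TPM in IgG control and 2.18, 4.39 and 28.90 TPM with anti-PD1. Cd4 did not follow: it had 4.64 and 0.82 TPM in IgG control and 4.99, 2.24 and 5.52 TPM with anti-PD1, with its lowest value in IgG control replicate 2, where Cd8a was at 30.06 TPM. Cd2 had 9.53 and 25.64 TPM against 6.52, 4.61 and 24.04 TPM, and Cd28 had 2.98 and 4.07 TPM against 1.21, 2.06 and 7.33 TPM. Thy1 had 31.98 and 42.83 TPM in IgG control and 9.46, 14.42 and 76.83 TPM with anti-PD1. Among the 5 libraries, anti-PD1 replicate 1 was lowest for 8 of 10 genes and anti-PD1 replicate 3 highest for 8 of 10. No share over all genes is given for these extremes. Ptprc was also lowest in anti-PD1 replicate 1 (86.68 TPM) but highest in IgG control replicate 2 (272.52 TPM), and the macrophage sum was lowest in anti-PD1 replicate 3.

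No difference between anti-PD1 and IgG control passed the test. In limma over 13418 genes, 0 of 10 genes were called and 0.0% of all genes were. An unadjusted p below 0.05 was found for 0 of 10, against 7.18% of all genes. In 0 of 10 were all anti-PD1 libraries above both IgG controls (9.57% of all genes) or all below (15.8%). Log2 fold changes ran from −1.99 for Cd3e (SE 1.10, limma adjusted p = 0.608) to 0.65 for Cd4 (SE 0.589, adjusted p = 0.693), with SE from 0.589 to 1.25. Cd4 was the 1 of 10 above 0, where 46.5% of all genes were, and it turned to −0.17 without IgG control replicate 2. Cd28, at −0.23 (SE 0.603), turned to 0.17 without anti-PD1 replicate 1. The median of the 10 was −1.07. It moved to −0.48 without anti-PD1 replicate 1, to −0.71 without IgG control replicate 2 and to −1.93 without anti-PD1 replicate 3, so it rested on single libraries. With the replicate number as a block, which leaves 1 residual degree of freedom and gives anti-PD1 replicate 3 a block of its own, 8 of 10 genes were called lower, as were 306 genes of the whole table, while 208 were called higher. Per 100 TPM of Ptprc, Cd3e had 12.38 and 8.11 TPM in IgG control and 0.75, 1.43 and 11.79 TPM with anti-PD1. On this scale 8 of 10 genes had a lower mean log2 ratio with anti-PD1 (median difference −0.90), compared with 20.8% of all genes. The libraries of the 2 groups overlapped for each of the 10 genes, and no share over all genes is given for this overlap. These differences carry no test. Cd8a, for example, had 13.57 and 11.03 TPM in IgG control and 17.56 TPM in anti-PD1 replicate 3. The NK cell genes summed to 71.4 and 145.2 TPM in IgG control and 23.0, 58.9 and 167.2 TPM with anti-PD1, with the same lowest and highest library as the CD8 chains. Median log2 fold changes with anti-PD1 were −0.46 for NK cell, −0.44 for macrophage and 0.83 for melanocyte genes, and the part of these cells in the levels of the 10 genes was not tested.

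Ratios within a library do not depend on its scaling, and they show how far the 10 genes varied as a unit. Cd8a to Cd8b1, the 2 chains of the CD8 heterodimer, ran from 0.90 to 1.56 over the 11 libraries while Cd8a itself ran from 0.51 to 44.16 TPM. Cd8a to Cd4 was 2.01 and 1.27 in control bulk tumors, 2.64 and 1.32 with sg492, and 1.41 and 3.10 with sg495, so the groups overlapped. In IgG control it was 4.74 and 36.66, and with anti-PD1 it was 0.51, 2.09 and 8. On the log2 scale, the difference in Cd8a to Cd4 was 0.40 for sg495 against control (exact permutation p = 0.667, n = 2 and 2, 2-sided), or −0.15 without sg495 replicate 2. It was −2.61 for anti-PD1 against IgG control (exact permutation p = 0.400, n = 3 and 2).

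CD3 subunit ratios were less even than the CD8 ratio. Cd3g to Cd247 was 2.89 and 4.57 in control bulk tumors, 2.35 in both sg492 libraries, and 2.07 and 2.66 with sg495, lower in all 4 edited libraries than in either control. The log2 difference between both guides and control was −0.57 (exact permutation p = 0.133, the smallest that 4 against 2 libraries allow). In anti-PD1 replicate 1 the same ratio was 0.58, and in the other 4 IgG control and anti-PD1 libraries it ran from 3.31 to 5.26. Cd3e to Cd3d ran from 0.94 to 1.60 in bulk tumors, was 1.63 and 1.69 in IgG control, and was 0.74, 0.75 and 1.16 with anti-PD1, below IgG control in all 3. Its log2 difference was −0.91 (exact permutation p = 0.200, the smallest possible here). Over the 21 ratio tests, the lowest Benjamini-Hochberg adjusted exact permutation p was 0.778, and 2 against 2 libraries cannot give a p below 0.333.

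Thy1 stood apart from the CD3 genes in its ratio. Thy1 to Cd3e was 10.65 and 31.00 in control bulk tumors, 19.25 and 17.69 with sg492, and 14.76 and 10.75 with sg495. It was 1.59 and 1.94 in IgG control and 14.55, 5.98 and 2.59 with anti-PD1. The libraries with the most Thy1 per Cd3e were thus bulk tumors and anti-PD1 replicate 1. Summed fibroblast genes ran from 170.9 to 478.2 TPM in bulk tumors and from 7.7 to 54.3 TPM in the other 5 libraries. Among these 5 the sum was highest in anti-PD1 replicate 1. Within bulk tumors the order differed. Control replicate 2 had the lowest fibroblast sum and the highest ratio, while sg495 replicate 2 had the highest sum and a ratio of 10.75. The divisor Cd3e was low in control replicate 2 (0.55 TPM) and anti-PD1 replicate 1 (0.65 TPM), which makes their ratios uncertain. The part of fibroblast RNA in the Thy1 level was not tested.

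**Figure D5:**
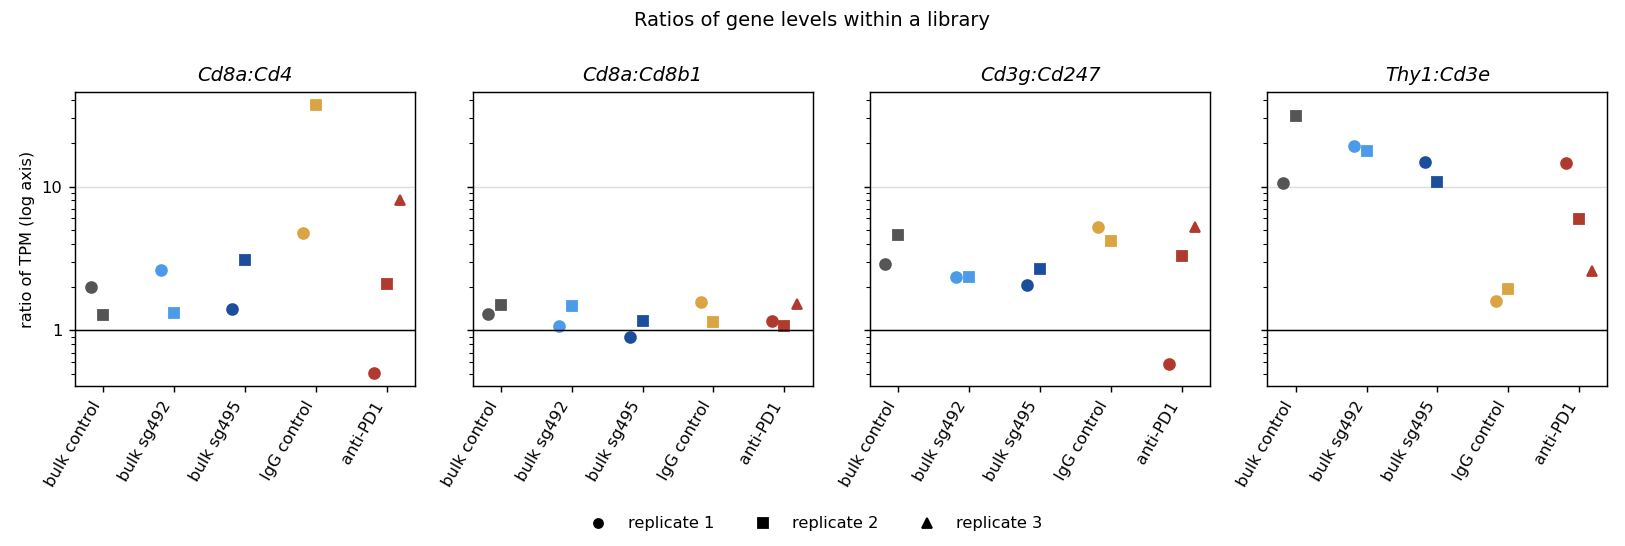
Ratios of TPM within each library on a shared log axis, with a symbol for each replicate and a line at a ratio of 1. Cd8a to Cd8b1 stays between 0.90 and 1.56, whereas Cd8a to Cd4 spans 0.51 to 36.66 and Thy1 to Cd3e spans 1.59 to 31.00.

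Likeness across libraries was measured with Pearson's r on log2(TPM + 1), as a description without a test, because the 11 libraries form 2 sets of different levels. Each gene was compared with the mean z score of the other 9. Cd8a had the highest r over the 11 libraries (0.993), followed by Cd3d and Cd8b1 (0.989 each), Cd3e and Cd247 (0.967 each), Cd28 (0.954), Cd3g (0.928) and Cd2 (0.916). Thy1 had 0.712 and Cd4 0.449. Within the 6 bulk tumors alone, r was 0.953 for Thy1 and 0.771 for Cd4, the lowest of the 10, and it ran from 0.876 to 0.994 for the other 8. Within the 5 IgG control and anti-PD1 libraries, r was 0.995 for Thy1 and −0.168 for Cd4. For the other 8 it ran from 0.851 to 0.993 there.

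Of 13893 genes whose mean over the 11 libraries reached 1 TPM, 161 had an r above 0.9 with the mean z score of the 10 genes, and the median over all was −0.54. The 10 nearest outside the list were Lat and Zap70 (0.991 each), Il2rb and Sh2d2a (0.988 each), Prf1 and Trac (0.984 each), and Il18r1, Gzmb, Cxcr6 and S1pr4 (0.978 to 0.979). Lat is the adaptor and Zap70 the kinase that act just below the receptor, and Trac is the constant part of its alpha chain. Lat had 1.68 and 0.71 TPM in the bulk control tumors, 1.68 and 1.80 in sg492, and 2.61 and 4.44 in sg495. Gzmb and Prf1 encode granzyme B and perforin, the killing proteins of cytotoxic cells. Gzmb had 80.19 and 108.42 TPM in IgG control and 13.33, 41.79 and 353.52 TPM with anti-PD1, with the same lowest and highest library as the CD8 chains. Within the 6 bulk tumors, r of these 10 genes ran from 0.893 for Il18r1 to 0.996 for Trac.

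The rest of the receptor pathway was read from lists chosen for their role, with earlier results of these data known. Of 7 antigen receptor constant genes, 4 were analysed and 3 passed the filter in bulk tumors. With sg495 all 3 had both libraries above both controls, with log2 fold changes of 1.42 for Trac (SE 0.384, limma adjusted p = 0.155), 1.27 for Trbc2 (SE 0.357) and 0.91 for Trbc1 (SE 0.505). Among 16 proximal signaling genes, 11 were tested and 10 were above 0, with a median of 0.88, led by the adaptor gene Lcp2 at 1.31 (SE 0.211, limma adjusted p = 0.0879). Of 9 other T cell surface receptors tested, 9 were above 0 with a median of 0.75, and Cd27, a costimulatory receptor gene, had the largest value, 1.43 (SE 0.345, limma adjusted p = 0.127). Among 4 T cell transcription factors tested, 4 were above 0 with a median of 0.47, and Tcf7, a factor of naive and stem-like T cells, had 0.85 (SE 0.171). Tcf7 was not confined to T cells here, with 5.27 to 7.89 TPM in cultured cells, 4.98 to 6.15 TPM in control and sg492 sorted tumor cells, and 11.45 and 10.88 TPM in sg495 sorted tumor cells. Nor were 3 of the 4 lists as a whole. Proximal signaling genes summed to 144.64 to 192.96 TPM in cultured cells and 141.72 to 211.45 TPM in bulk tumors. Other surface receptors summed to 164.1 to 191.03 TPM and 210.01 to 266.39 TPM. The median gene of these 2 lists was at most 0.205 TPM in cultured cells, so some members carried the sums. T cell transcription factors summed to 30.47 to 37.26 TPM in cultured cells and 38.51 to 61.85 TPM in bulk tumors. Counts above 0 in these 3 lists are thus not a readout of T cells alone. Antigen receptor constant genes were the exception, with sums of at most 0.07 TPM in cultured cells and 0.27 TPM in sorted tumor cells. In these 4 lists, 0 genes were called in any comparison by limma, while 2 of 3, 7 of 11, 4 of 9 and 2 of 4 genes had an unadjusted p below 0.05 with sg495. Over all genes in that comparison, 15.7% had such a p, 31.6% had both sg495 libraries above both controls and 63.1% were above 0.

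With sg492 the medians of the same 4 lists were 0.39, 0.32, 0.53 and 0.29, in the order given. For anti-PD1 against IgG control they were −0.83, −0.55, −0.32 and −0.77, with 3, 16, 14 and 11 genes tested. Trac had 41.27 and 34.96 TPM in IgG control and 7.66, 13.37 and 84.10 TPM with anti-PD1, again below both controls in replicates 1 and 2 and above both in replicate 3. Its log2 fold change was −0.83 (SE 0.869, limma adjusted p = 0.728).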

How the data were processed

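RNA-seq of 23 mouse B16F10 libraries was deposited as TPM, a length-scaled transcript share with the same total in every library, which the authors made from poly(A)-selected, single-end reads with Cutadapt 2.3, STAR 2.7.0d and RSEM 1.3.1 on mm10 with Ensembl genes. TPM keep no read counts, so depth per library is unknown and no counting interval is given. Libraries were grouped by their titles. The 10 genes and all lists were chosen with earlier results of these data known.

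TPM of the 6 bulk tumors, and separately of the 5 IgG control and anti-PD1 libraries, were filtered at a mean of 1 TPM, transformed to log2(TPM + 1) and fitted with limma 3.58.1 (R 4.3.3, eBayes with a trend). P-values were adjusted over all genes by the Benjamini-Hochberg method, and the steps were tested on simulated data. Ratios used a pseudocount of 0.1 TPM and 2-sided exact permutation tests (scipy 1.17.1). All 10 genes were named with their values. From each list of pathway or cell type genes, at most 3 with the largest log2 fold change or those needed to read sample content were named, and the 10 genes most like the set were named by Pearson's r. Positions are of GENCODE M21 on GRCm38, where 99.1% of gene identifiers matched.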

Additional observations from a re-analysis of the deposited data

How the results depend on the processing

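Depth is unknown, and with 2 or 3 libraries a group, single libraries set directions. Other pseudocounts, filters, scalings, fits and left-out libraries were tried. With these, 659 single-gene values kept their direction and side of the threshold, 15 reversed and 13 became called. Of counts, medians and ratios, 283 were classed as unchanged, 15 reversed and 4 rose. A median was classed as unchanged if it moved by less than the SD of library medians, whatever its sign. That SD was 0.44 in bulk tumors and 1.25 for anti-PD1, a wide margin. The sg492 median of −0.13 without control replicate 2 was thus classed as unchanged. In a fit of all 18 libraries, limma called 3 of the 10 genes for sg495 against control, in place of 0. It also called 1 for sg495 against sg492 and 1 for both guides against control, again in place of 0. Over the whole table it called 526 genes higher and 35 lower for sg495, in place of 3 and 1. For both guides it called 381 higher and 7 lower, in place of 2 and 0, and between the guides 52 and 34, in place of 0 and 0. Replicate numbers did not pair the libraries (correlations of deviations −0.126, −0.00633, 0.02 and 0.0851 for control with sg492, control with sg495, sg492 with sg495, and IgG control with anti-PD1). With the replicate number as a block, 0 of the 10 genes and 0 genes of the whole table were called in each bulk comparison, also with the sg492 numbers exchanged (chosen after seeing the data), and 8 of the 10 were called for anti-PD1. Without control replicate 1, 178 genes were called higher and 12 lower for sg495. For sg492 against control, Cd3e was −0.013 with median-of-ratios scaling and −0.14 with quantile normalization. With 1 library left out at a time, log2 fold changes of sg492 ranged from −0.50 to 0.54 for Cd3e, −0.13 to 0.49 for Cd3d, −0.36 to 0.16 for Cd3g, −0.091 to 0.59 for Cd247, −0.10 to 0.61 for Cd4, −0.22 to 1.02 for Cd8a, −0.17 to 0.98 for Cd8b1 and −0.0039 to 0.43 for Thy1. Those of both guides ranged from −0.19 to 0.86 for Cd3e and −0.078 to 0.44 for Cd3g, and those of anti-PD1 from −0.17 to 1.46 for Cd4 and −0.79 to 0.17 for Cd28. Differences in log2 ratio ranged, for sg495, from −0.15 to 0.95 for Cd8a to Cd4, −0.52 to 0.12 for Cd3e to Cd3d, −0.079 to 1.10 for Cd3e to Cd3g and −0.36 to 0.26 for Cd3e to Cd247. For both guides they ranged from −0.022 to 0.64, −0.53 to 0.11, −0.19 to 0.99 and −0.48 to 0.13 in the same order, and −0.037 to 0.13 for Cd3d to Cd247. For anti-PD1 they ranged from −0.65 to 0.21 for Cd3e to Cd3g and −1.02 to 0.15 for Cd3d to Cd247. The cause of these changes was not tested. A fit of only the compared groups does not apply to both guides, which use all 6 libraries.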
